A study of Bos taurus with 27 samples.

Results

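The mitochondrial genome of cattle carries 13 protein genes, and the 9 described here are *COX1*, *COX2*, *COX3*, *CYTB*, *ATP6*, *ND1*, *ND2*, *ND4* and *ND5*. They were chosen by name from that genome and not by a rule on measured values, though with earlier results of these data known. Each matched a single identifier among the 24616 in the count table. The animals were 27 male Holstein calves, and RNA of the colon had been sequenced from tissue collected at 51 h after birth. All calves received pooled, pasteurized colostrum by tube and later milk replacer, and they differed in the time of the first colostrum meal. The 9 TRT0 calves were fed at 0 h, that is straight after birth, the 9 TRT6 calves at 6 h and the 9 TRT12 calves at 12 h. In each treatment 4 calves were born to primiparous heifers (H) and 5 to multiparous cows (C), which gave the 6 groups TRT0_H, TRT0_C, TRT6_H, TRT6_C, TRT12_H and TRT12_C. Every sample was bulk tissue of 1 calf, and the calf is the replicate.

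Mitochondrial DNA is transcribed from both strands into long precursors, which are cut at the tRNAs that lie between most of the genes. The messenger RNAs that result encode core subunits of the machinery of oxidative phosphorylation, and the remaining subunits are encoded in the nucleus. *ND1*, *ND2*, *ND4* and *ND5* encode subunits of complex I, which takes electrons from NADH. *CYTB* encodes the cytochrome b of complex III, *COX1*, *COX2* and *COX3* the catalytic core of complex IV, which reduces oxygen, and *ATP6* a membrane subunit of ATP synthase, or complex V. *COX1* and *COX2* are here cytochrome c oxidase genes and not the prostaglandin synthases that share these names. Epithelial cells of the colon use this machinery to burn short-chain fatty acids, and smooth muscle uses it for contraction.

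The libraries held between 1163791 and 4202593 counts on genes, and the lowest count of any of the 9 mRNAs in a calf was 1220. All 9 were among the 13943 genes that passed the filter on low counts. As a check of the labelled tissue, 8 of 10 epithelial marker genes could be matched and together reached 2298 to 3975 CPM, the count of a gene divided by the counts on all genes of that calf and multiplied by 1000000. The 7 smooth muscle markers summed to 7134 to 14551 CPM and the 4 fibroblast markers to 5328 to 13434 CPM, so muscle and connective tissue were present beside the epithelium in every sample. Of the immune markers *CD74* and *PTPRC* were matched, with 437 to 1346 CPM together, and no red blood cell marker was matched. *KRT20* and *CDX2* were the epithelial markers without a match. In bulk tissue, fewer cells of a type and less RNA per cell cannot be told apart. The sample descriptions carry a code with 3 values, read here as sequencing run and lane. They are called lanes 1, 2 and 3, with 11, 11 and 5 calves. Lane 1 held no TRT0_C calf, and lane 3 held no TRT0_H, TRT6_H or TRT12_C calf.

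The 9 mRNAs took 3.34% ± 0.335 (SD, n = 27) of all gene counts, between 2.63% and 3.92% in single calves. With *ND3*, *ND4L*, *ND6* and *ATP8*, the 4 other mRNAs of the mitochondrial genome, the share was 3.53% ± 0.362. *COX1* (ENSBTAG00000043561) had a mean of 12313 ± 1194 CPM and was 1 of the 5 genes with the highest mean CPM in the colon. It made up 37.0% ± 2.16 of the counts on the 9 mRNAs. *CYTB* (ENSBTAG00000043550) followed with 3891 ± 538 CPM and *COX3* (ENSBTAG00000043560) with 3468 ± 439 CPM. *ND4* (ENSBTAG00000043577) had 2781 ± 371 CPM, *ND5* (ENSBTAG00000043563) 2696 ± 281 CPM and *ATP6* (ENSBTAG00000043584) 2563 ± 334 CPM. *COX2* (ENSBTAG00000043556) had 2334 ± 315 CPM, *ND1* (ENSBTAG00000043558) 2038 ± 282 CPM and *ND2* (ENSBTAG00000043571) 1268 ± 188 CPM (SD, n = 27 each). CPM is not divided by gene length, so these values place each mRNA within the library and do not rank the transcripts by number of molecules. *ND4L* and *ATP8* had 288 ± 35.8 and 198 ± 40.1 CPM. Their reading frames overlap those of *ND4* and *ATP6*, and reads that fell on more than 1 gene had not been counted. The opposite strand carries *ND6*, and the library kit does not mark strand, so the counts of *ND6* (593 ± 76.9 CPM) and of *ND5*, its neighbour, could not be told apart where the genes meet.

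Across treatments the levels lay close together. *COX1* ran from 9652 over a median of 12225 to 14648 CPM in TRT0, from 11250 over 12344 to 13785 CPM in TRT6 and from 11010 over 12407 to 13904 CPM in TRT12. The TRT0 calves thus spanned the whole range of the other two treatments. *CYTB* ran from 3149 over 4275 to 4482 CPM in TRT0, from 2495 over 3807 to 4517 CPM in TRT6 and from 2981 over 4006 to 4315 CPM in TRT12. *ND2*, the lowest of the 9, ran from 843 over 1306 to 1425 CPM in TRT0, from 1048 over 1243 to 1323 CPM in TRT6 and from 1096 over 1326 to 1789 CPM in TRT12. For each of the 9 mRNAs, all 3 pairs of treatments overlapped.

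**Figure D1:**
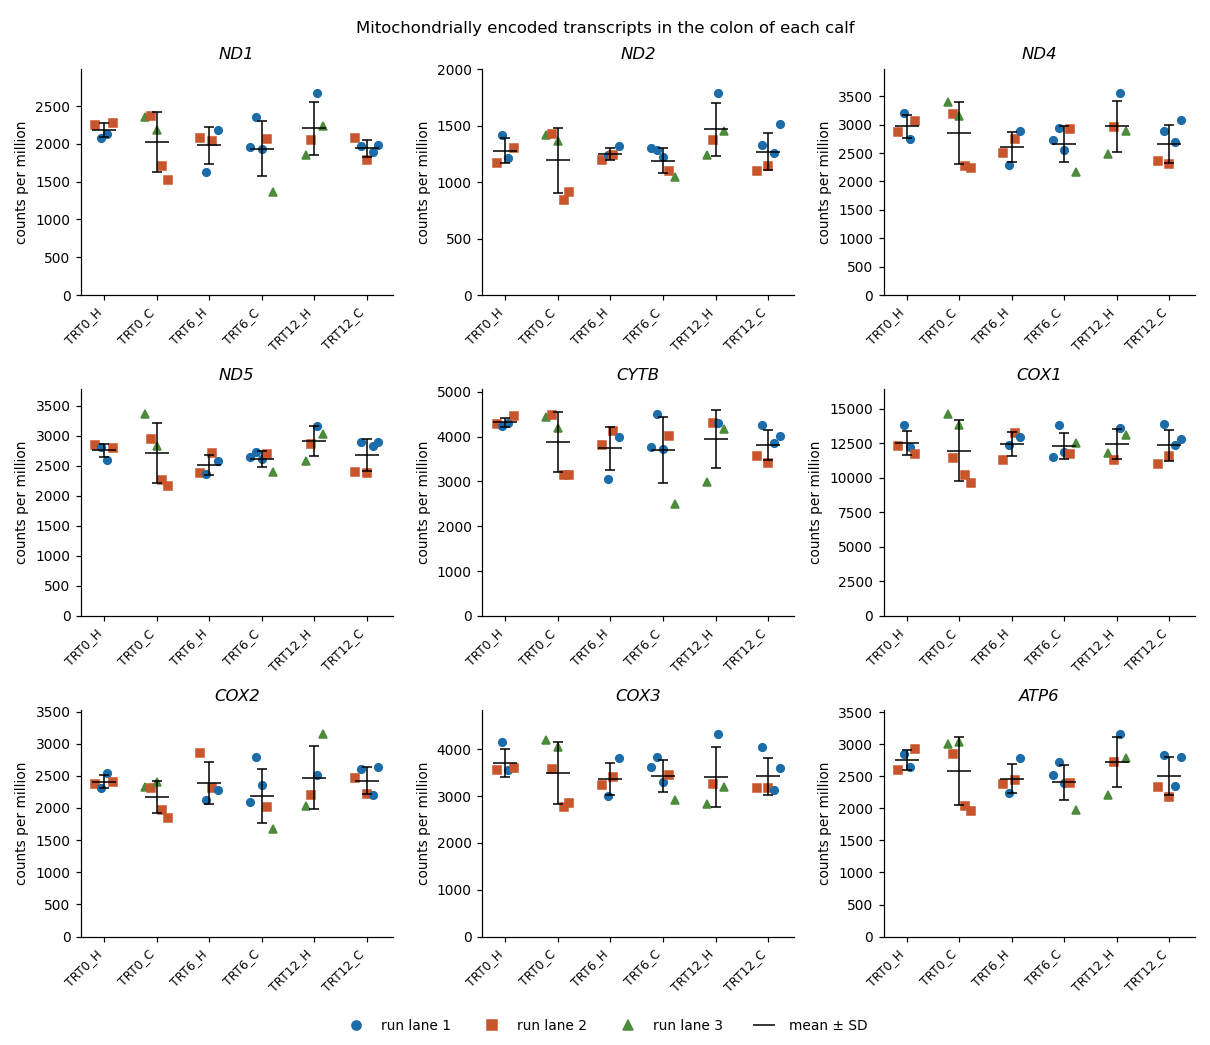
CPM (vertical axes, from 0) of the 9 mitochondrially encoded mRNAs in each calf by group, with a symbol for the lane as read from the sample descriptions and the mean ± SD of each group (n = 4 in H and 5 in C groups). All pairs of groups overlap, apart from TRT0_H and TRT6_H in CYTB and TRT0_H and TRT12_C in ND1. In COX1 the points of TRT0_C spread more than those of the other groups, from 9652 to 14648.

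Ordered by their means, the 6 groups differed by less than their spread for most of the mRNAs. The gap between the lowest and the highest group mean ran from 0.432 pooled within-group SDs in *COX1* (11950 CPM in TRT0_C and 12517 CPM in TRT0_H) to 1.5 in *ND2* (1190 CPM in TRT6_C and 1465 CPM in TRT12_H). For *ND2* the order from low to high was TRT6_C, TRT0_C, TRT6_H, TRT12_C, TRT0_H and TRT12_H, and the widest step between neighbours was 1.03 SDs. No step between neighbours in any of the other 8 orders was wider than 0.668 SDs. *ND5*, the core subunit at the end of the membrane arm of complex I, came next with 1.42 SDs between TRT6_H (2508 CPM) and TRT12_H (2910 CPM). TRT12_H was the highest group for *ND1*, *ND2*, *ND4*, *ND5* and *COX2*, and TRT0_H for *COX1*, *COX3*, *CYTB* and *ATP6*.

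When any 2 of the 6 groups were compared, 2 pairs did not overlap, 1 for *CYTB* and 1 for *ND1*. *CYTB* was at 4232, 4275, 4300 and 4464 CPM in the TRT0_H calves and at 3056, 3807, 3989 and 4118 CPM in the TRT6_H calves. Each TRT0_H calf was above each TRT6_H calf, and 2.3% of all genes tested did not overlap between these groups. The fitted log2 fold change in TRT6_H vs. TRT0_H was -0.19 (SE 0.20, 95% interval -0.61 to 0.22, adjusted p = 1.0 in edgeR's quasi-likelihood fit). *ND1* was at 2084, 2129, 2255 and 2279 CPM in TRT0_H and at 1785, 1886, 1976, 1988 and 2082 CPM in TRT12_C. The highest TRT12_C calf and the lowest TRT0_H calf were separated by less than 2 CPM, and 1.81% of all genes did not overlap between these groups. All 3 groups were run in lanes 1 and 2, TRT0_H and TRT6_H with 2 calves in each and TRT12_C with 3 and 2.

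Treatment was then tested over all 13943 genes with edgeR's quasi-likelihood test, with dam parity as a second term, and a gene was called at an adjusted p (FDR, by Benjamini-Hochberg over all genes tested) of at most 0.10 and a fold change of at least 1.2. None of the 9 mRNAs was called in TRT6 vs. TRT0, TRT12 vs. TRT0 or TRT12 vs. TRT6, and the call took in 0% of all genes in each of these contrasts. At an unadjusted p under 0.05 none of the 9 passed either, where 3.13%, 9.37% and 3.14% of all genes did. DESeq2 and edgeR's likelihood ratio test also called none of the 9, while DESeq2 called 51 of all genes in TRT12 vs. TRT0.

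In TRT6 vs. TRT0 the log2 fold changes of the 9 mRNAs ran from -0.12 for *ND4* (SE 0.13) to 0.040 for *COX1* (SE 0.12), with 3 above 0 and 6 below. The 95% intervals of all 9 lay between -0.38 and 0.30. In TRT12 vs. TRT0 they ran from -0.049 for *CYTB* (SE 0.13) to 0.16 for *ND2* (SE 0.13), with 4 above 0 and 5 below. *ND2* had the lowest p of the 9 in that contrast (unadjusted p = 0.245 and, by edgeR's quasi-likelihood test over all genes, adjusted p = 0.761). The intervals lay between -0.32 and 0.43. In TRT12 vs. TRT6 all 9 estimates were above 0, from 0.0010 for *COX1* to 0.15 for *ND2*, with intervals between -0.27 and 0.43. The share of all genes with an estimate above 0 in these 3 contrasts was 51.7%, 49.3% and 49.5%. The 9 mRNAs varied together across calves, as shown further on, so that 9 estimates on one side are not 9 separate observations.

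**Figure D2:**
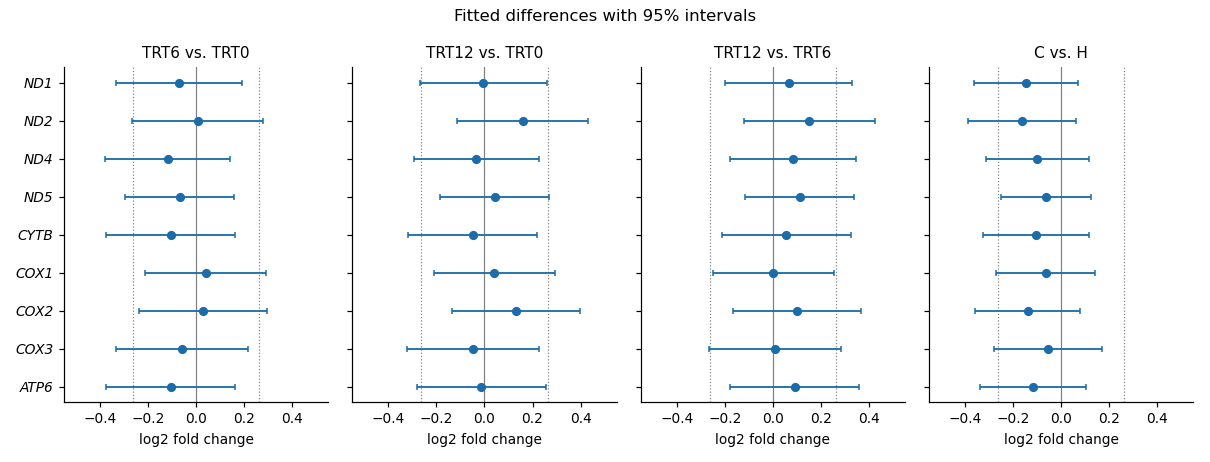
Fitted log2 fold changes (horizontal axes) of the 9 mRNAs in the 4 contrasts over all 27 calves, with 95% intervals from edgeR's quasi-likelihood fit and dotted lines at a fold change of 1.2 in either direction. All 36 intervals hold 0, and the estimates run from -0.16 to 0.16.

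Calves born to cows were also compared with those born to heifers. In C vs. H all 9 log2 fold changes were below 0, where 48.9% of all genes were above 0, and they ran from -0.16 for *ND2* (SE 0.11) to -0.054 for *COX3* (SE 0.11), with intervals between -0.39 and 0.17. None was called, against 0% of all genes, and none had an unadjusted p under 0.05, against 2.52%. The lowest p was that of *ND2* (unadjusted p = 0.148 and adjusted p = 1.0 in edgeR's quasi-likelihood fit). Summed over the 9 mRNAs, the share of gene counts was 3.41% ± 0.261 (SD, n = 12) in H and 3.28% ± 0.383 (SD, n = 15) in C calves. The ranges, 3.0% to 3.91% and 2.63% to 3.92%, overlapped. In lane 1 the mean shares were 3.50% in 5 H and 3.43% in 6 C calves, in lane 2 they were 3.35% in 5 H and 3.02% in 6 C calves, and in lane 3 they were 3.30% in 2 H and 3.49% in 3 C calves.

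The 9 contrasts within a parity or a treatment gave no call for these mRNAs, against 0% of all genes in each contrast, and none at an unadjusted p under 0.05. In H calves that p was met by 3.35% of all genes in TRT6_H vs. TRT0_H, 3.56% in TRT12_H vs. TRT0_H and 1.8% in TRT12_H vs. TRT6_H. In C calves the shares were 1.95% in TRT6_C vs. TRT0_C, 9.86% in TRT12_C vs. TRT0_C and 6.71% in TRT12_C vs. TRT6_C, and between parities 2.52% at TRT0, 3.86% at TRT6 and 2.68% at TRT12. In those contrasts the lowest estimate was that of *CYTB* in TRT0_C vs. TRT0_H, -0.23 (SE 0.19, 95% interval -0.62 to 0.16). The highest was that of *COX2* in TRT12_C vs. TRT0_C, 0.23 (SE 0.18, 95% interval -0.14 to 0.59). TRT0_C was run in lanes 2 and 3, and TRT0_H and TRT12_C were run in lanes 1 and 2. With 4 or 5 calves a group the half-widths of these intervals were 0.31 to 0.42, so estimates closer to 0 than that could not be told from it. The interaction of treatment and parity, which asks whether the treatments differ in H and C calves alike, was tested in the same edgeR fit. It gave an adjusted p of 1.0 for each of the 9, where 0.00717% of all genes were called, and none had an unadjusted p under 0.05, against 2.67%.

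Single calves differed more than groups did. Of the squared deviations of CPM over the 27 calves, treatment held 0.458% (*COX1*) to 11.6% (*ND2*) and parity 0.311% (*COX3*) to 9.35% (*ND2*). The lowest shares of gene counts on the 9 mRNAs were 2.63% in TRT0 calf 8 and 2.72% in TRT0 calf 7, both TRT0_C calves of lane 2. In calf 8, 8 of the 9 mRNAs were among the 3 lowest of all calves, and in calf 7 it was 7 of 9. The highest was 3.92% in TRT0 calf 1, also a TRT0_C calf but of lane 3, followed by 3.91% in TRT12 calf 4, a TRT12_H calf of lane 1. TRT0_C, with 2.63%, 2.72%, 3.46%, 3.71% and 3.92%, therefore held the lowest and the highest calf of the study. The TRT0_H calves lay close together, at 3.39%, 3.42%, 3.46% and 3.69%.

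**Figure D3:**
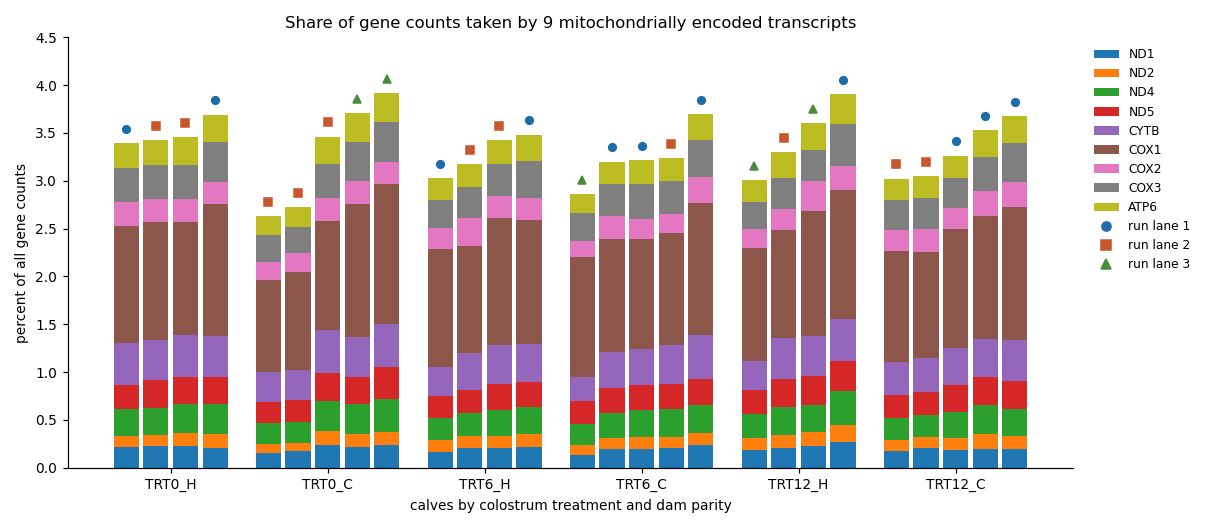
Percent of all gene counts (vertical axis) on the 9 mitochondrially encoded mRNAs in each calf, stacked by gene and sorted within each group, with a symbol for the lane as read from the sample descriptions above each bar. Bar heights run from 2.63% to 3.92%, and both ends lie in TRT0_C.

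By treatment the mean share was 3.38% ± 0.433 for TRT0, 3.26% ± 0.249 for TRT6 and 3.37% ± 0.323 for TRT12 (SD over 9 calves). Without its 2 lowest calves TRT0 had a mean of 3.58% over 7 calves, from 3.39% to 3.92%. Those 2 calves were picked by this same share, so a higher mean was fixed in advance. No calf was left out of TRT6 or TRT12 in this way. The order of the treatments was not the same in each lane. In lane 1 the 2 TRT0 calves had a mean of 3.54%, the 5 TRT6 calves of 3.32% and the 4 TRT12 calves of 3.59%. Lane 2 had 3.14% in 5 TRT0, 3.28% in 3 TRT6 and 3.12% in 3 TRT12 calves. In lane 3 the 2 TRT0 calves had 3.81%, the 2 TRT12 calves 3.30% and the single TRT6 calf 2.86%.

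Lane, with 3 levels as treatment has and 1 more than parity, held 43.6% of the squared deviations of CPM in *COX1*, 22.5% in *ND2* and 16.8% in *COX3*. It held more than treatment and parity in 5 of the 9 mRNAs. In *CYTB* treatment held 7.55% and lane 5.48%, in *ND4* treatment held 9.18% and lane 5.77%, and in *COX2* and *ND1* lane held 4.01% and 1.19%, less than treatment or parity. On the log2 scale with TMM factors, which scale the libraries against each other, lane held more than both in 8 of the 9, and *ND1* was the exception. *COX1* had 12841 ± 834 CPM in lane 1, 11391 ± 949 CPM in lane 2 and 13181 ± 1110 CPM in lane 3 (SD, n = 11, 11 and 5). Mean shares of gene counts were 3.46% ± 0.268 in lane 1 (n = 11), 3.17% ± 0.291 in lane 2 (n = 11) and 3.42% ± 0.461 in lane 3 (SD, n = 5). A test of lane beside treatment and parity, chosen after these values had been seen, called none of the 9 at an adjusted p of at most 0.10, against 2.41% of all genes. *COX1*, *COX3* and *ND2* had an unadjusted p under 0.05, against 15.5% of all genes. In lane 2 against lane 1 the log2 fold change of *COX1* was -0.29 (SE 0.10, 95% interval -0.50 to -0.079), and those of the 9 ran from -0.34 (*ND2*) to -0.18 (*ND1*). The summed fibroblast markers were highest in lane 2, with 7257 ± 1869 CPM in lane 1, 10046 ± 1791 CPM in lane 2 and 6908 ± 979 CPM in lane 3. For smooth muscle the sums were 10239 ± 2423, 11442 ± 1927 and 9066 ± 1781 CPM, and for epithelium 2926 ± 283, 2890 ± 341 and 2905 ± 751 CPM (SD, n = 11, 11 and 5). Their part in the difference between lanes was not tested.

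Over all 27 calves the SDs of the 9 mRNAs lay below the median of all genes tested. The SD of log2 CPM with TMM factors ran from 0.21 in *ND5* to 0.30 in *ND2*, and the median over all genes tested was 0.37. Of all genes tested, 9.67% had a lower SD than *ND5* and 31.8% a lower SD than *ND2*. The genes tested reach down to about 1 CPM, where counting adds more to the SD than at the level of the 9 mRNAs. A comparison with genes of like CPM was not run. *ATP5B* and *ATP5A1*, the nuclear subunits with the highest mean CPM, had SDs of 0.28 and 0.29, within the range of the 9. As a percentage of the mean CPM the SD was 9.70 in *COX1* and 14.8 in *ND2*, and counting alone would give 0.648 and 2.04. With library totals in place of TMM factors the SDs were 0.14 in *COX1* to 0.22 in *ND2*, and the median over all genes was 0.38. Of the 4 other mitochondrial mRNAs, *ND3* and *ATP8* had SDs of 0.37 and 0.34 with TMM factors, and *ND4L* and *ND6* each had 0.26.

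The proportions of the 9 mRNAs to each other do not depend on how libraries are scaled. Over the 36 pairs the SD of the log2 ratio of counts ran from 0.066 to 0.20, with a median of 0.14, and in 29 pairs the same gene had the higher count in all 27 calves. *ATP6* and *ND4* stayed closest, with a ratio of 0.923 that ran only from 0.821 to 0.989. *ND4* and *ND5*, which follow each other along the genome, had a ratio of 1.03 (0.906 to 1.14), and *ATP6* and *COX3*, also neighbours, one of 0.740 (0.677 to 0.874). *COX1* and *CYTB* had the most variable ratio, which had a mean of 3.21, a low of 2.54 and a high of 5.02.

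*COX1* had 3.01 ± 0.295 times the counts of *CYTB* in the TRT0 calves, 3.41 ± 0.691 times in the TRT6 calves and 3.22 ± 0.351 times in the TRT12 calves (SD over 9 calves). By lane the ratio was 3.23 ± 0.297, 2.96 ± 0.279 and 3.74 ± 0.784 (SD, n = 11, 11 and 5). The value of 5.02 belonged to TRT6 calf 9, a TRT6_C calf of lane 3, with 12533 CPM of *COX1* and 2495 CPM of *CYTB*. That calf had the smallest library of all, 1163791 counts, and 6 of its 9 mRNAs were among the 3 lowest. *COX2* was the member that followed the others least closely, with a median SD of 0.18 over its 8 pairs, against 0.16 for the 8 pairs of *COX1* and 0.12 for the 21 pairs without either. The median SD was 0.15 in the 8 pairs that follow each other among the 9 and 0.14 in the other 28. Among those 8 pairs, other protein genes lie between *COX2* and *ATP6*, *COX3* and *ND4*, and *ND5* and *CYTB*. Distance along the genome was not measured.

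**Figure D4:**
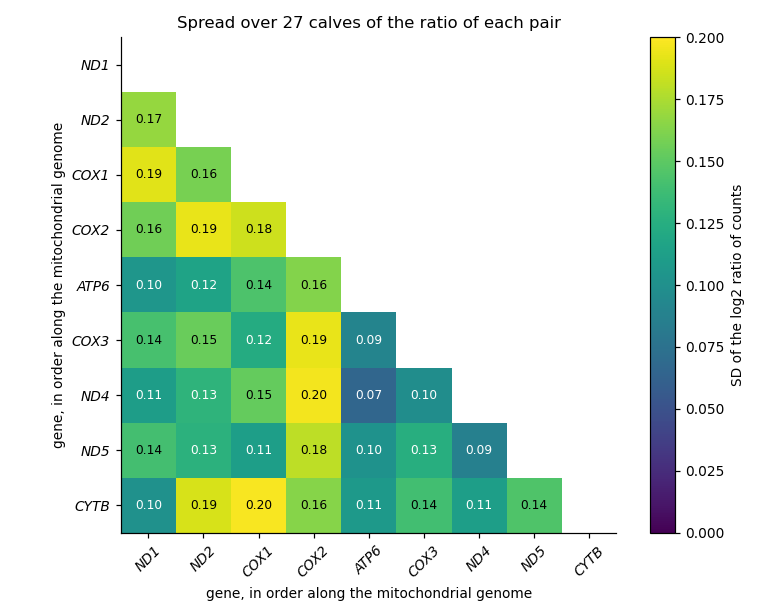
SD over 27 calves of the log2 ratio of counts (colour, with the value in each cell) for every pair of the 9 mRNAs, ordered by their place along the mitochondrial genome on both axes. The closest pair is ATP6 with ND4 at 0.07, the widest are COX1 with CYTB and COX2 with ND4 at 0.20, and the row and column of COX2 hold values of 0.16 and more.

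As a description, Pearson's r of log2 CPM with TMM factors over the 27 calves was 0.701 to 0.971 over the 36 pairs, with a median of 0.860. The SDs of the 9 mRNAs were lower with library totals than with TMM factors, and r with library totals was not computed. All points of such an r share the library and its scaling factor. Among all genes tested, the 3 with the highest r to each of the 9 made 27 places, and mitochondrial mRNAs held 24 of them. *ND4* and *ATP6* were each other's nearest gene (r = 0.971), *ND5* had *ND6* (r = 0.952), *CYTB* had *ND3* (r = 0.939), and *ND1* had *CYTB* (r = 0.930). *COX3* had *ATP6* (r = 0.944), *ND2* had *ND5* (r = 0.927) and *COX1* had *ND6* (r = 0.909). The 3 other places belonged to 2 identifiers without a name in the tables used here: ENSBTAG00000043567 was the nearest gene of *COX2* (r = 0.864) and the third of *COX3* (r = 0.918), and ENSBTAG00000043582 was the third of *COX2* (r = 0.852). Whether these 2 identifiers are genes of the mitochondrial genome could not be read from those tables. The subunits of complexes I to V that the nucleus encodes came later, and the first of them for *COX2* was *ATP5A1* on place 59 (r = 0.690).

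These nuclear subunits share their complexes with the products of the 9 mRNAs, and 38 of 98 on the list could be matched to an identifier, 37 of which passed the filter. *ATP5B*, the catalytic beta subunit of ATP synthase, had 622 ± 94.9 CPM and *ATP5A1*, the alpha subunit, 399 ± 58.0 CPM. *SDHA*, the flavoprotein of complex II, had 247 ± 40.4 CPM and *SDHB* 90.7 ± 14.1 CPM. *COX4I1* of complex IV had 177 ± 21.7 CPM and *COX6A1* 133 ± 24.2 CPM. *UQCRC1* and *CYC1* of complex III had 144 ± 24.2 and 138 ± 22.1 CPM, and *NDUFS1* of complex I 143 ± 18.2 CPM (SD, n = 27 each).

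In TRT12 vs. TRT0, 32 of the 37 nuclear subunits had a log2 fold change above 0, with a median of 0.22, where the median was -0.0047 over the 9 mitochondrial mRNAs and -0.0039 over all genes. None was called by edgeR's quasi-likelihood test (lowest adjusted p = 0.421), against 0% of all genes. At an unadjusted p under 0.05, 11 of the 37 were higher in TRT12, against 5.19% of all genes, and none was lower, against 4.19%. They were *NDUFA7* and *NDUFV1* of complex I, *SDHA*, *UQCRFS1* and *UQCRQ* of complex III, *COX5A*, *COX6A1* and *COX8B* of complex IV, and *ATP5A1*, *ATP5B* and *ATP5G3* of complex V. *COX6A1* had a log2 fold change of 0.38 (SE 0.13), *ATP5B* of 0.32 (SE 0.12) and *SDHA* of 0.28 (SE 0.11). With DESeq2 the number higher at an unadjusted p under 0.05 was again 11, against 5.11% of all genes. DESeq2 called 1 subunit, *ATP5B* (adjusted p = 0.0911), which was 1 of the genes it called in this contrast, as counted above. In edgeR's quasi-likelihood fit, leaving out 1 calf moved the number to as few as 7, without TRT12 calf 6 or calf 9, against 3.84% and 4.03% of all genes. It rose to as many as 19 without TRT12 calf 7, against 6.18% of all genes. Genes of a list vary together across calves, and the difference between the nuclear and the mitochondrial subunits was not tested.

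**Figure D5:**
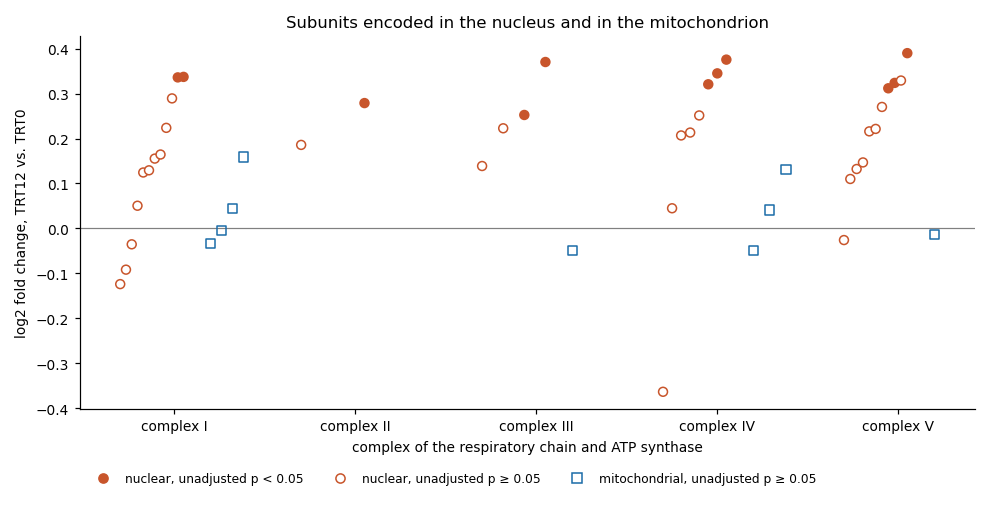
Log2 fold change in TRT12 vs. TRT0 (vertical axis) of 37 subunits encoded in the nucleus (circles, filled at an unadjusted p under 0.05) and 9 encoded in the mitochondrion (squares), by complex (horizontal axis). Of the circles 32 lie above 0, and the squares lie between -0.049 and 0.16.

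Summed, the nuclear subunits had 3390 ± 300 CPM over the 9 TRT0 calves, 3709 ± 383 CPM over the 9 TRT6 calves and 3977 ± 471 CPM over the 9 TRT12 calves (SD). The ranges, 2949 to 3941, 3132 to 4193 and 3480 to 4736 CPM, overlapped. Counts on the 9 mitochondrial mRNAs were 10.1 ± 1.72 times those on the nuclear subunits in TRT0, 8.87 ± 1.13 times in TRT6 and 8.60 ± 1.46 times in TRT12. TRT0 had the highest mean ratio in each lane, and the order of TRT6 and TRT12 differed between lanes. In lane 1 that ratio was 10.6 for the 2 TRT0, 9.01 for the 5 TRT6 and 9.72 for the 4 TRT12 calves. Lane 2 had 9.35 for 5 TRT0, 9.24 for 3 TRT6 and 7.66 for 3 TRT12 calves. In lane 3 it was 11.3 for 2 TRT0 calves, 7.05 for the single TRT6 calf and 7.78 for 2 TRT12 calves. Epithelial markers lay on the same side: all 8 had an estimate above 0 in TRT12 vs. TRT0, *CDH1* and *VIL1* at an unadjusted p under 0.05, and their sum was 2749 ± 304 CPM in TRT0 (2393 to 3143) and 3066 ± 522 CPM in TRT12 (2298 to 3975). No marker on that list was at 0 in any calf. All 4 fibroblast markers had an estimate below 0 in TRT12 vs. TRT0, with a median of -0.17, and in TRT6 vs. TRT0, with a median of -0.29 and *DCN* and *LUM* at an unadjusted p under 0.05. Their sum was 9240 ± 2179 CPM for TRT0 (7431 to 13434), 7610 ± 2170 CPM for TRT6 (5328 to 12350) and 8137 ± 2175 CPM for TRT12 (5569 to 12382). Of the 7 smooth muscle markers, 5 were below 0 in TRT12 vs. TRT0 and 4 in TRT6 vs. TRT0, none at an unadjusted p under 0.05. The part of these markers in the nuclear subunits was not tested.

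In TRT6 vs. TRT0, 33 of the 37 nuclear subunits had an estimate above 0 and 2, *COX6A1* and *COX8B*, an unadjusted p under 0.05, where 1.48% of all genes were higher at that p. TRT12 vs. TRT0 and TRT6 vs. TRT0 share their TRT0 calves. In C vs. H, 31 of the 37 were below 0, with a median of -0.046, and none had an unadjusted p under 0.05. Of 38 genes listed for the upkeep and expression of mitochondrial DNA, 4 could be matched. *LRPPRC*, which stabilizes mitochondrial mRNAs, had 108 ± 13.7 CPM and *PPARGC1A*, a coactivator of mitochondrial biogenesis, 85.2 ± 12.2 CPM. *FASTKD2* and *MTERF3* had 11.5 ± 3.59 and 10.8 ± 3.21 CPM (SD, n = 27 each), and none of the 4 was called in any contrast or had an unadjusted p under 0.05 in the 4 contrasts over all calves.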

How the data were processed

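Colon RNA of 27 calves had been sequenced as 100-base read pairs from libraries that do not mark strand. The authors aligned the reads to UMD3.1 with TopHat 2.1.1, sorted them with SAMtools 1.4 and counted them per Ensembl gene with HTSeq. Reads on more than 1 gene were not counted, and the HTSeq version, its strand setting and the Ensembl release are not given in the sources used here. The deposited table holds raw counts, 1163791 to 4202593 per calf. The 95% intervals are for a fitted difference between groups, with an SE that takes in the spread between calves, and are not the range in which single calves lie.

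Treatment came from the labels. Dam parity is not in the labels or the column names, so it was taken from the study's sample sheet, and fits without a parity term were run as well. Gene symbols came from the study's lists of core genes and of co-expression modules, which pair 4046 of the 24616 identifiers with a name. Both lists were chosen on these samples, which sets which subunits and markers could be matched. CPM used the total of all gene counts in a calf as its base. No gene lengths of the build used were at hand, so no level per kilobase is given. Order along the mitochondrial genome came from RefSeq (ARS-UCD2.0).

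Genes with at least 1 CPM in at least 5 of 9 calves of each treatment were tested with edgeR 4.0.16 (R 4.3.3), with TMM factors of 0.887 to 1.15, treatment and parity as additive terms for the 4 overall contrasts and a mean for each of 6 groups for the 9 others. Benjamini-Hochberg adjustment ran over all genes tested. The quasi-likelihood script was tested on simulated data. DESeq2 1.42.0 was an alternative. The genes named were the 9 mRNAs, the 4 other mitochondrial mRNAs, the 3 genes with the highest r to each of the 9 (log2 CPM with TMM factors, prior count 1), the 2 nuclear subunits of each complex with the highest mean CPM, and any called. The values of 1 gene that this rule names are not reported here. Others with an unadjusted p under 0.05 were named after their values were seen. The members and lists were chosen with earlier results of these data known.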

Additional observations from a re-analysis of the deposited data

Results flagged for a closer look

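Among 90 sets of values, the CPM of each of the 9 mRNAs and their summed share in the 3 treatments and the 6 groups, 3 held a calf that stood apart from the rest of its set by Dixon's test at the 95% level, and chance flags about 5% of such sets. *COX3* was at 4163 CPM in TRT0 calf 5, against 3547 to 3590 CPM in the 3 other TRT0_H calves. *CYTB* was at 2981 CPM in TRT12 calf 1, against 4183 to 4315 CPM in the 3 other TRT12_H calves. *ND1* was at 2675 CPM in TRT12 calf 4, against 1785 to 2233 CPM in the 8 other TRT12 calves. No difference of the treatment contrasts between H and C calves was called for any of the 9 mRNAs.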

How the results depend on the processing

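Each of 11 alternatives was run for all or some of the 13 contrasts and the interaction. No member was called in any of these runs or with any of the 27 calves left out in turn. The lowest adjusted p of a member over the contrasts was 0.471 (edgeR's quasi-likelihood test, *COX2* in TRT12_C vs. TRT0_C without TRT12 calf 7). The alternatives were an adjusted p of 0.05, edgeR's likelihood ratio test, DESeq2, library totals without TMM factors, no filter, genes with 1 CPM in all calves, lane as a covariate, the 10 highest genes or the mitochondrial mRNAs left out of the library sizes, the compared groups only and, added after the data were seen, no parity term. The adjusted p of 0.05 used the same fit, so it could add no call to those at 0.10. The fit without a parity term covered the 3 treatment contrasts, and that of the compared groups did not cover C vs. H or the interaction. Every estimate in C vs. H stayed below 0. Changes of sign were followed for 54 log2 fold changes. They were those of all 9 mRNAs in the 4 overall contrasts and of the lowest and the highest in each of the 9 others. Outside leaving out a calf, the estimates among these 54 that changed sign were at most 0.069 from 0. With lane as a covariate, they were -0.0070 for *COX1*, -0.016 for *COX2* and -0.069 for *ND2* in TRT6 vs. TRT0, -0.011 for *COX1* and -0.0011 for *ND5* in TRT12 vs. TRT0, -0.0041 for *COX1* in TRT12 vs. TRT6 and -0.064 for *ND5* in TRT6_C vs. TRT6_H. Library totals gave -0.00044 for *COX2* and -0.015 for *ND2* in TRT6 vs. TRT0 and -0.012 for *COX2* in TRT6_H vs. TRT0_H. Without a filter *ND2* had -0.0027 in TRT6 vs. TRT0 and *COX2* -0.0032 in TRT6_H vs. TRT0_H. *COX1* in TRT12 vs. TRT6 had -0.00022 with DESeq2 and -0.0024 with genes at 1 CPM in all calves, and *ND1* in TRT12 vs. TRT0 had 0.0085 without the 10 highest genes. Leaving out 1 calf changed the sign of 20 of the 54 log2 fold changes followed. In TRT6 vs. TRT0 the range was -0.011 to 0.10 for *COX1*, -0.052 to 0.076 for *COX2* and -0.059 to 0.064 for *ND2*. In TRT12 vs. TRT0 the range was -0.010 to 0.10 for *COX1*, -0.12 to 0.0060 for *COX3*, -0.10 to 0.0078 for *CYTB*, -0.071 to 0.049 for *ATP6*, -0.069 to 0.037 for *ND1*, -0.10 to 0.014 for *ND4* and -0.0060 to 0.10 for *ND5*. In TRT12 vs. TRT6 the range was -0.046 to 0.053 for *COX1* and -0.057 to 0.062 for *COX3*. In TRT6_H vs. TRT0_H the range was -0.12 to 0.074 for *COX2*. In TRT12_H vs. TRT6_H the range was -0.14 to 0.033 for *COX1*. In TRT6_C vs. TRT0_C the range was -0.18 to 0.059 for *ATP6* and -0.029 to 0.19 for *COX1*. In TRT12_C vs. TRT0_C the range was -0.13 to 0.063 for *ND4*. In TRT12_C vs. TRT6_C the range was -0.069 to 0.17 for *ND1*. In TRT6_C vs. TRT6_H the range was -0.063 to 0.049 for *ND5*. In TRT12_C vs. TRT12_H the range was -0.072 to 0.22 for *COX3*. The cause of these sign changes was not tested. The median SD of log2 CPM over the 9 mRNAs was 0.27 with TMM factors and 0.19 with library totals. Over counts without the 10 highest other genes, the 9 mRNAs took 5.30% in place of 3.34%, since those counts leave the total. The order of the members per kilobase was not run, as no lengths were at hand. No paired analysis was possible because the labels give the groups no shared replicate numbers. Each calf was in a single group, and the calf numbers used here link no calves between groups. Estimates nearer to 0 than 0.31 to 0.42 on the log2 scale between groups of 4 and 5 calves, or than 0.23 to 0.27 between treatments, could not be told from 0 with these numbers of calves.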

Other observations

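Of the 4 mitochondrial mRNAs outside the 9, *ATP8* and *ND6* had the lowest p in the test of lane (unadjusted p = 0.00312 and 0.00595, adjusted p = 0.108 and 0.142 from edgeR's quasi-likelihood test), with log2 fold changes in lane 2 against lane 1 of -0.31 (SE 0.11) and -0.29 (SE 0.099). The identifier ENSBTAG00000043567, which has no name in the tables used here and was the nearest gene of *COX2*, had a mean of 103851 CPM over the 27 calves.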
